A study of Canis lupus familiaris with 32 samples.

Results

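The proteasome and ubiquitin conjugation genes were examined in 32 primary osteosarcomas of dogs, bone tumors in which malignant cells lay down bone matrix. Members were all genes whose platform annotation symbol names a proteasome subunit or activator (PSMA to PSMG), a ubiquitin activating (UBA) or conjugating (UBE2) enzyme, a cullin, SKP1, an F-box protein (FBXO, FBXW) or a ubiquitin specific protease (USP). The rule used names only. It found 92 of the 5246 named genes, on 149 of the 22176 probes of the array, and 58 of the members had 1 probe while 34 had between 2 and 7.

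The short survivors (SS, 16 dogs) lived less than 6 months and the long survivors (LS, 16 dogs) lived 6 months or longer. All tumors were taken at surgery from dogs that had received no treatment before, and were snap-frozen, and chemotherapy after surgery varied. Every tumor was hybridized on 1 cDNA array of 2 colors, together with a reference pool of RNA from all 32 tumors. In each survival group the tumor carried the dye Cy5 on 8 arrays and Cy3 on the other 8. A value is the log2 ratio of tumor over pool (the base of the logarithm was read as 2), so 0 is the average of the tumors and not the absence of the transcript. These ratios hold no absolute level, and the tissue could therefore not be checked by the presence of markers. In bulk tumor RNA fewer cells of a type and less RNA per cell cannot be told apart.

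Ubiquitin is activated by an E1 enzyme, passed to an E2 enzyme and attached to a substrate by an E3 ligase. Cullin complexes form the biggest family of E3 ligases, and some of them hold F-box proteins as substrate receptors. Chains of ubiquitin send proteins to the 26S proteasome, in which the 19S particle binds, unfolds and strips the substrate and the 20S barrel cuts it. Deubiquitinases such as the USP enzymes remove ubiquitin, and interferon replaces catalytic beta subunits of the barrel by those of the immunoproteasome, which makes peptides for MHC class I molecules.

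The members comprised 7 alpha and 5 standard beta subunits of the 20S barrel. Another 5 were genes of the immunoproteasome and the 11S activator (PSMB8, PSMB9, PSME1, PSME2 and PSME3). For the 19S particle there were 4 ATPases (PSMC) and 9 non-ATPase genes (PSMD). The PSMD genes hold the assembly chaperones PSMD5, PSMD9 and PSMD10 beside subunits of the particle. Further members were the assembly chaperone PSMG3, the E1 enzyme UBA1, 14 E2 enzymes, 3 cullins, 19 F-box proteins and 22 USP enzymes. PSMC3IP and PSME3IP1 matched by symbol, although they are named after the subunits they bind. PSMB6, PSMB7, PSMB10 and SKP1 were not analysed here.

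The dye had a large effect on these ratios. Between the Cy5 and Cy3 arrays 59 of the 92 members differed at a limma adjusted p under 0.10, against 59.1% of all genes, and over the 92 members the mean ratio on Cy5 arrays and that on Cy3 arrays had a correlation of -0.955. Array medians lay between -0.03 and 0.02. The strength of the dye effect on an array was the slope of its own ratios on the dye effect averaged over the other 31. A strength of 1 equals that averaged effect, and slopes are given without their sign. The strength was 0.448 to 0.858 on the SS arrays and 0.964 to 1.27 on the LS arrays with the tumor in Cy5, which did not overlap, and 0.210 to 1.06 on the SS arrays and 0.843 to 1.43 on the LS arrays with the tumor in Cy3. Differences within each orientation are therefore given beside many of the values over all arrays. Where no dye, block or centering is named, the ranges of SS and LS tumors and the SE of their difference pool the dyes.

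No member passed the test between SS and LS tumors over all arrays. Limma called 0 of 92 members at an adjusted p under 0.10, where it called 0% of all 5246 genes. At an unadjusted p under 0.05, 10 members were higher and 0 were lower in SS tumors, against 5.72% of all genes higher and 2.73% lower. The difference was above 0 for 66 members, or 71.7%, against 56.6% of all genes, and its median was 0.08 over the members and 0.02 over all genes on the log2 scale. With the orientation as a block limma again called 0 members, against 0.419% of all genes higher and 0.152% lower. Then 23 members were higher and 1 was lower at an unadjusted p under 0.05, against 8.67% and 4.84% of all genes. In both orientations the difference was above 0 for 45 members and below 0 for 11, and for the other 36 the orientations disagreed. Of all genes 29.4% lay above 0 and 20.4% below 0 in both.

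**Figure D1:**
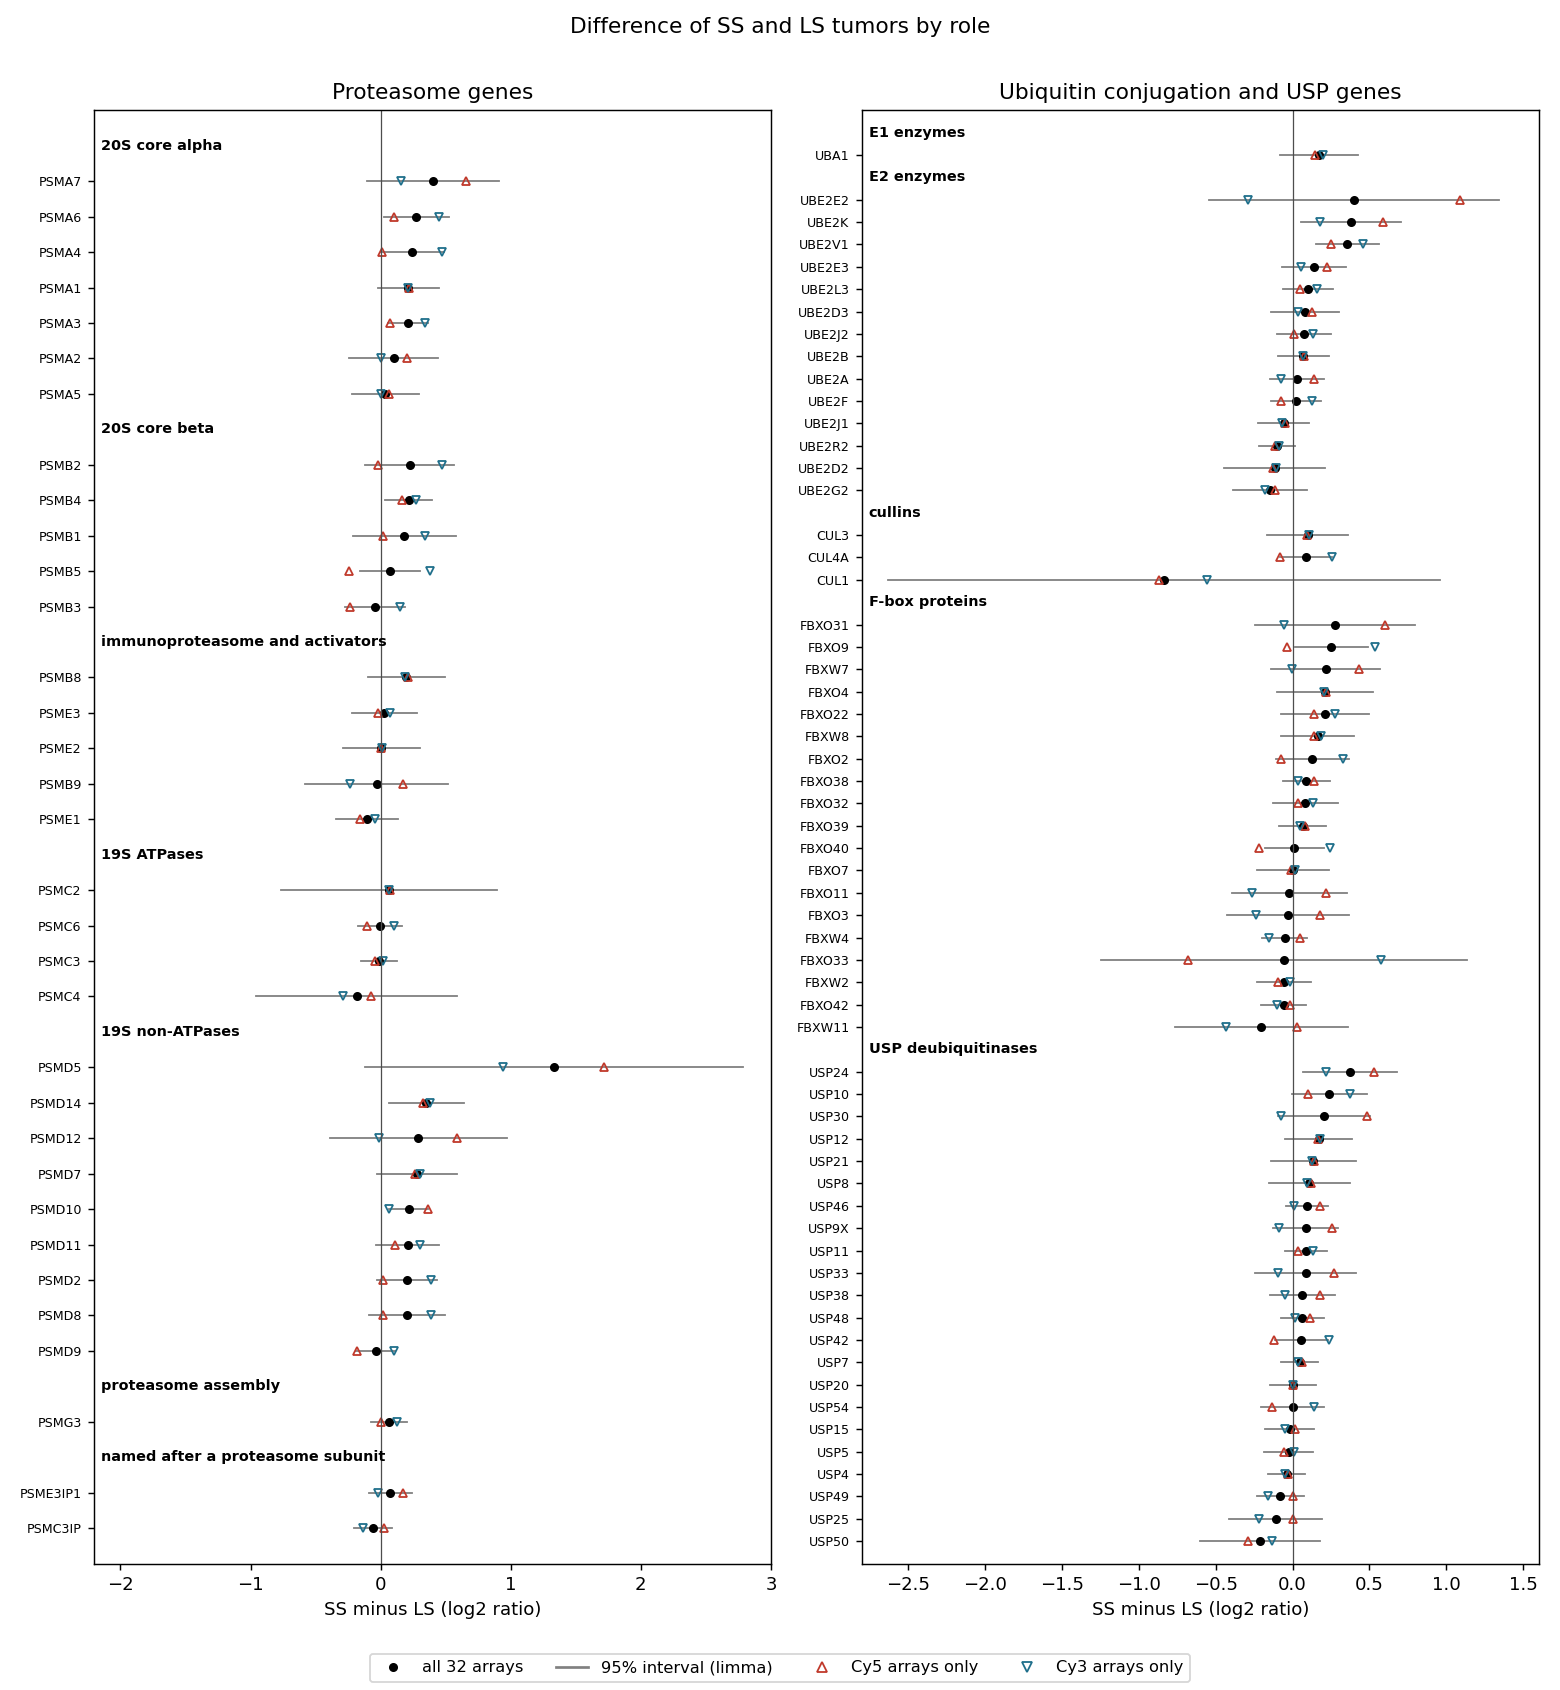
Each row is 1 member gene and the x axis gives the SS minus LS difference in log2 ratio. Black points with grey lines are the difference over 32 arrays with its 95% limma interval, triangles pointing up are the 16 Cy5 arrays alone and triangles pointing down the 16 Cy3 arrays alone. The 20S and 19S non-ATPase genes lie mostly right of 0, the 19S ATPases and immunoproteasome genes around 0, and for 36 members the triangles lie on opposite sides of 0.

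The smallest p belonged to UBE2V1, an E2 variant without a catalytic cysteine that pairs with UBE2N to build chains used in signaling. Its log2 ratio ran from -0.35 to 0.92 with a median of 0.24 in SS tumors, and from -0.52 to 0.30 with a median of -0.09 in LS tumors. The groups overlapped, with 14 of 16 SS tumors above the median of the LS tumors with the same dye. The mean was 0.23 ± 0.32 in SS and -0.13 ± 0.25 in LS tumors (SD, n = 16 each), a 1.28-fold difference (log2 difference 0.36, SE 0.10, limma p = 0.001355, adjusted p = 0.2962). It was 0.25 on the Cy5 and 0.46 on the Cy3 arrays. Both UBE2V1 probes gave nearly the same difference, 0.35 and 0.36. SAM, a permutation method run at a false discovery rate of 10%, called UBE2V1 as its 1 member, against 0.858% of all genes higher and 0% lower in SS tumors.

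Among the 20S alpha subunits, which form the outer rings of the barrel and its gate, all 7 had a difference above 0 in both orientations and a median of 0.21. PSMA3 ran from -0.28 to 0.39 with a median of 0.15 in SS tumors, and from -0.37 to 0.39 with a median of -0.13 in LS tumors, a difference of 0.21 (SE 0.08, limma p = 0.009977, adjusted p = 0.4325). The ranges coincided at the top, and 13 of 16 SS tumors were higher than the median of the LS tumors with the same dye. PSMA3's 3 probes did not behave alike, with differences between -0.02 and 0.40. PSMA6 differed by 0.27 (SE 0.12) and PSMA4 by 0.24 (SE 0.12), and neither passed the test (adjusted p = 0.5254 for PSMA6 and 0.5774 for PSMA4). PSMA4 was 0.01 apart on the Cy5 arrays and 0.48 apart on the Cy3 arrays. PSMA7 carried a strong dye effect, with a Cy5 minus Cy3 difference of -1.26. Its values were -0.60 to 0.22 in SS and -1.37 to -0.29 in LS tumors on the Cy5 arrays, and 0.37 to 1.28 in SS and 0.27 to 1.13 in LS tumors on the Cy3 arrays. The difference was thus 0.65 within the Cy5 and 0.16 within the Cy3 arrays.

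Of the 5 standard 20S beta subunits 4 were above 0, and their median was 0.18. It was -0.02 on the Cy5 arrays and 0.34 on the Cy3 arrays. PSMB4, a structural subunit, ran from -0.37 to 0.48 (median 0.09) in SS tumors and from -0.65 to 0.26 (median -0.15) in LS tumors. The groups overlapped over most of that range, and the difference of 0.22 (SE 0.09) had an adjusted p of 0.4798. PSMB1 and PSMB2, also without catalytic activity, differed by 0.18 (SE 0.20) and 0.22 (SE 0.17), and PSMB3 by -0.04 (SE 0.11). PSMB2 was at -0.02 on the Cy5 and 0.47 on the Cy3 arrays. PSMB5, the chymotrypsin-like subunit that proteasome inhibitors bind, turned with the dye. On the Cy5 arrays it was -0.28 to 0.16 in SS and 0.02 to 0.41 in LS tumors, and on the Cy3 arrays -0.39 to 0.82 in SS and -0.55 to 0.29 in LS tumors. Its difference was -0.24 on the Cy5 and 0.38 on the Cy3 arrays, and the test of the difference between the orientations gave an adjusted p of 0.07075, where 4 members and 3.09% of all genes passed.

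Averaged over the 12 standard 20S genes after each gene was centered within its orientation, the tumors ran from -0.45 to 0.46 with a median of 0.14 in SS and from -0.47 to 0.35 with a median of -0.10 in LS. Of the tumors above 0, 11 were SS and 6 were LS. Both groups held tumors at either end. SS tumor 1 was the highest and SS tumor 7 the lowest of its group, while LS tumors 27 and 22 were the highest and lowest of theirs.

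The immunoproteasome and 11S activator genes went both ways, with a median difference of 0.01 and 3 of 5 above 0. PSMB8 ran from -0.51 to 1.33 (median -0.04) in SS tumors and from -0.66 to 0.78 (median -0.17) in LS tumors, a difference of 0.20 (SE 0.15, adjusted p = 0.7537) that was 0.21 on the Cy5 and 0.19 on the Cy3 arrays. PSMB9 ran from -1.21 to 2.73 (median -0.31) in SS tumors and from -1.04 to 1.10 (median -0.16) in LS tumors, a difference of -0.03 with a 95% interval of -0.58 to 0.52, which was 0.17 on the Cy5 and -0.23 on the Cy3 arrays. The spread within each group was wide, and SS tumor 4 held the highest value of both genes. PSME1 and PSME2, which form the activator ring induced by interferon gamma, differed by -0.10 (SE 0.12) and 0.01 (SE 0.14), and PSME3, the nuclear activator, by 0.03 (SE 0.12). SS tumor 4 was also the highest in PSME2 (1.24) and PSME3 (1.29), and LS tumor 17 was the highest in PSME1 (0.74).

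In the 19S particle, of the 4 ATPases 1 lay above 0 and the median was -0.01, with PSMC3 at -0.01 (95% interval -0.15 to 0.12), PSMC6 at -0.00 (95% interval -0.17 to 0.17), PSMC4 at -0.18 (SE 0.38) and PSMC2 at 0.07 (SE 0.41). Of the 9 non-ATPase genes, chaperones included, 8 lay above 0, with a median of 0.22. No test of that contrast between the lists was made. PSMD10, the chaperone also known as gankyrin, ran from -0.14 to 0.62 (median 0.18) in SS tumors and from -0.37 to 0.36 (median -0.08) in LS tumors. Among the SS tumors 15 of 16 exceeded the median of the LS tumors with the same dye, and the difference was 0.22 (SE 0.07, adjusted p = 0.3869), 0.37 on the Cy5 and 0.07 on the Cy3 arrays. The 2 PSMD10 probes gave differences of 0.13 and 0.30 but did not run together over the tumors (r = 0.005). PSMD14, the subunit that cuts ubiquitin chains off the substrate, ran from -0.67 to 1.14 (median 0.11) in SS tumors and from -0.95 to 0.68 (median -0.26) in LS tumors. The difference was 0.35 (SE 0.14, adjusted p = 0.4798), 0.32 on the Cy5 and 0.38 on the Cy3 arrays, and both of its probes were above 0. PSMD7, the inactive partner of PSMD14, differed by 0.28 (SE 0.15). PSMD5, an assembly chaperone of the 19S base, had the biggest difference of all members, 1.33, with an SE of 0.71. Its values spread from -1.89 to 5.83 in SS tumors and from -4.34 to 2.74 in LS tumors, and it rests on 1 probe. These ranges pool the dyes, between which PSMD5 differed by 2.52 (Cy5 minus Cy3).

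**Figure D2:**
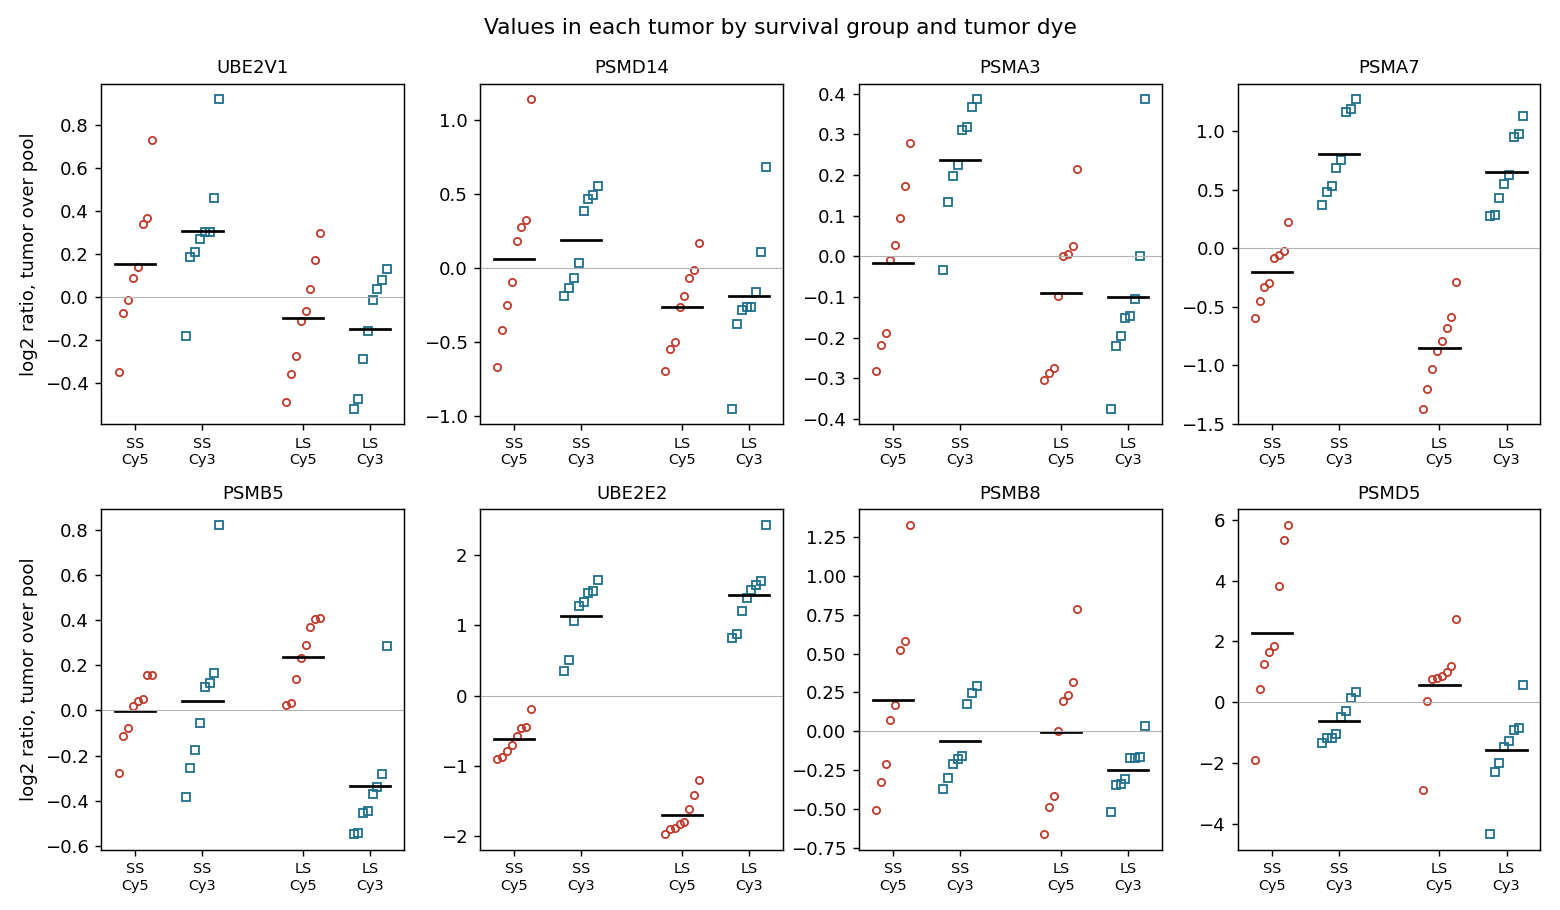
Each point is 1 tumor, the y axis is the log2 ratio of tumor over pool, and the columns hold the SS and then the LS tumors with the tumor in Cy5 (circles) or Cy3 (squares), 8 of each. Black bars are means. The SS means of UBE2V1 and PSMD14 lie above the LS means on both dyes, PSMA7 and UBE2E2 jump between the dyes, PSMB5 turns its direction with the dye, and PSMD5 spreads over several log2 units.

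UBA1, the major E1 enzyme and the only one measured, ran from -0.34 to 0.92 (median 0.07) in SS tumors and from -0.60 to 0.35 (median -0.06) in LS tumors. These ranges pool the dyes, and its SD of 0.36 over all tumors was 0.19 within the orientations. On the Cy5 arrays it was 0.08 to 0.92 in SS and 0.10 to 0.35 in LS tumors. On the Cy3 arrays it was -0.34 to 0.07 in SS and -0.60 to -0.23 in LS tumors. The groups overlapped on both dyes, with 12 of 16 SS tumors above the median of the LS tumors with the same dye. The difference of 0.17 (SE 0.12, dyes pooled) was 0.15 on the Cy5 and 0.20 on the Cy3 arrays. Among the 14 E2 enzymes 10 were above 0, with a median of 0.07. UBE2K, which builds K48 chains, differed by 0.38 (SE 0.16, adjusted p = 0.4798), 0.59 on the Cy5 and 0.18 on the Cy3 arrays. It ran from -0.51 to 1.16 (median 0.19) in SS tumors and from -0.98 to 0.35 (median -0.14) in LS tumors. UBE2R2, an E2 of the cullin ligases, was the E2 with the smallest p below 0, at -0.10 (SE 0.06, adjusted p = 0.6633), with 2 of 16 SS tumors higher than the median of the LS tumors with the same dye. UBE2G2, an E2 of degradation at the endoplasmic reticulum, and UBE2D2, an E2 shared by many ligases, were at -0.15 (SE 0.12) and -0.12 (SE 0.16).

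The cullins, scaffolds of multisubunit ligases, gave no call. CUL3 and CUL4A differed by 0.10 (SE 0.13) and 0.09 (SE 0.08), and CUL4A was at -0.08 on the Cy5 and 0.26 on the Cy3 arrays. CUL1, the scaffold of the SCF ligase, was measured in 31 tumors because 1 value was missing, and ran from -6.03 to 2.05 (median 0.69) in SS tumors and from -3.82 to 4.77 (median 0.90) in LS tumors. These ranges pool the dyes, between which CUL1 differed by 3.67 (Cy5 minus Cy3), and its SD of 2.56 over all tumors was 1.74 within the orientations. The difference of -0.84 had a 95% interval of -2.63 to 0.96.

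Of the 19 F-box proteins, the substrate receptors of SCF ligases, 12 were above 0, with a median of 0.07. FBXO9 ran from -0.46 to 1.06 (median 0.12) in SS tumors and from -0.52 to 0.43 (median -0.22) in LS tumors, a difference of 0.25 (SE 0.12, adjusted p = 0.5628). On the Cy3 arrays its groups did not overlap, at -0.11 to 0.51 in SS against -0.52 to -0.21 in LS tumors, and on the Cy5 arrays its difference was -0.03. With PSMA4 and FBXO2 it was 1 of 3 members whose SS tumors all lay above the LS tumors on the Cy3 arrays, against 0.286% of all genes. FBXW11, a receptor for phosphorylated beta-catenin and IkB, was at -0.20 (SE 0.28), FBXO42, a receptor linked to p53, at -0.06 (SE 0.07), and FBXO32, the muscle atrophy ligase atrogin-1, at 0.08 (SE 0.10). FBXW8, a receptor used with CUL7, and FBXO4 were at 0.16 (SE 0.12) and 0.21 (SE 0.15).

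Of the 22 USP enzymes 16 were above 0, with a median of 0.06. USP24 ran from -0.71 to 1.20 (median 0.19) in SS tumors and from -0.79 to 0.32 (median -0.22) in LS tumors, a difference of 0.37 (SE 0.15, adjusted p = 0.4798), 0.53 on the Cy5 and 0.22 on the Cy3 arrays. The groups overlapped, and 10 of 16 SS tumors were higher than the median of the LS tumors with the same dye. USP10, which stabilizes p53 in human cells, differed by 0.24 (SE 0.12), USP12 by 0.17 (SE 0.11) and USP46 by 0.09 (SE 0.07). Below 0 lay USP50 at -0.21 (SE 0.19), USP25 at -0.11 (SE 0.15) and USP49, a deubiquitinase of histone H2B, at -0.08 (SE 0.07).

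Within 1 dye orientation some members did pass the test, and they were not the same ones in the 2 orientations. On the 16 Cy5 arrays limma called 6 members higher and 0 lower in SS tumors, against 1.87% of all genes higher and 0.248% lower. On the 16 Cy3 arrays it called 3 higher and 0 lower, against 1.45% and 0.648% of all genes. The Cy5 calls were UBE2E2 (1.09), PSMA7 (0.65), FBXO31 (0.60), PSMD12 (0.59), USP30 (0.49) and FBXW7 (0.43), given as log2 differences, with adjusted p from 3.6e-04 to 0.07219. The 2 probes of USP30 disagreed on the Cy5 arrays, at 0.74 and 0.23 (r = 0.04 over the tumors). Those of FBXW7 did too, at 0.74 and 0.12 (r = 0.24). The Cy3 calls were FBXO9 (0.54), PSMA4 (0.48) and FBXO2 (0.33), with adjusted p of 0.02051, 0.04082 and 0.07985. These genes were singled out after their values were seen.

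All 6 genes called on the Cy5 arrays had lower ratios on Cy5 than on Cy3 arrays. The Cy5 minus Cy3 difference, on the log2 scale, was -2.45 for UBE2E2, -1.80 for PSMD12, -1.32 for FBXO31, -1.26 for PSMA7, -0.86 for FBXW7 and -0.66 for USP30. UBE2E2, an E2 enzyme, was at -0.90 to -0.19 in SS and -1.98 to -1.21 in LS tumors on the Cy5 arrays, without overlap. On the Cy3 arrays the groups overlapped, with 0.35 to 1.65 in SS and 0.82 to 2.43 in LS tumors. UBE2E2, FBXO31 and USP30 were the 3 members whose SS tumors all lay above the LS tumors on the Cy5 arrays, against 0.724% of all genes. FBXW7, the receptor of MYC and cyclin E, was at -0.38 to 0.02 in SS and -0.95 to -0.35 in LS tumors on the Cy5 arrays, and at 0.14 to 1.02 in SS and 0.28 to 0.83 in LS tumors on the Cy3 arrays. So in each of these genes the SS tumors lay closer to 0 on the Cy5 arrays, where the dye effect was also weaker on the SS arrays. With the dye strength of each array as a term, chosen after the data were seen, limma called 0 of the 92 members on the Cy5 arrays and 1, FBXO9 (adjusted p = 0.06877), on the Cy3 arrays. The smallest limma adjusted p over all 5246 genes was 0.1726 on the Cy5 and 0.06877 on the Cy3 arrays. The share of all genes called on the Cy3 arrays was not counted. Over all arrays with that term limma called 0 members, against 0.572% of all genes higher and 0.248% lower in SS tumors. On the Cy5 arrays the dye strengths of the survival groups did not overlap, so dye strength and survival group cannot be told apart there.

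Survival time itself was used in place of the 2 groups. The slope of the log2 ratio on log10 survival time was fitted with the orientation as a block, a model chosen after the data were seen. Limma then called 13 of 92 members higher with shorter survival and 0 lower, against 3.89% of all genes higher and 2.02% lower. The slope was above 0 for 70 members, or 76.1%, against 57.2% of all genes. Of the 30 proteasome subunits and activators 9 were called, and of the other 62 members 4. SS and LS are the same dogs divided at 6 months, so these slopes are no independent evidence of the differences above.

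The called members were, per 10-fold shorter survival, UBE2V1 (0.39, SE 0.08, adjusted p = 0.01045) and the 19S scaffold PSMD2 (0.31, SE 0.07, adjusted p = 0.03). Also called were the alpha subunits PSMA7 (0.39), PSMA6 (0.32) and PSMA3 (0.20) and the beta subunit PSMB4 (0.23). The rest were the 19S subunits PSMD14 (0.40), PSMD7 (0.32) and PSMD12 (0.30), the 19S chaperone PSMD5 (1.49), UBE2K (0.40), FBXO22 (0.32) and UBA1 (0.16). The adjusted p of those without one here lay between 0.04 and 0.10. No 19S ATPase, immunoproteasome or activator gene, cullin or USP enzyme was among them. Slopes were still above 0 for 4 of 4 ATPases (median 0.10), 3 of 3 cullins (median 0.13) and 16 of 22 USP enzymes (median 0.08). The 5 immunoproteasome and activator genes had slopes between -0.19 and 0.04. All 13 called members had slopes above 0 in both orientations. Among the SS and among the LS tumors taken alone 12 had slopes above 0, the exception being UBA1 with -0.03 in LS tumors. Since the 13 were chosen for a slope above 0 over these same tumors, these shares are a description and no independent check. Within SS tumors alone and within LS tumors alone 0 members passed the test, against 0.0381% and 0% of all genes higher, and 63 slopes were above 0 in each, against 53.3% of all genes in SS and 55.7% in LS tumors. On the Cy5 arrays 0 members were called, against 0.0191% of all genes higher. On the Cy3 arrays 11 were called higher and 1, FBXO3, lower (slope -0.29, adjusted p = 0.04063), against 4.35% and 2.54% of all genes. Without a dye term 1 member was called, UBE2V1 at an adjusted p of 0.0301, against 0.515% of all genes higher and 0.0762% lower. With dye strength in place of the block 18 were called, including all 13, against 4.98% and 2.17%.

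The count depended on 1 tumor. Without SS tumor 3, from a dog among the shortest survivors, 1 member was still called, UBE2V1, and 38 genes in all were higher with shorter survival in place of 204. After centering within the orientation tumor 3 held the highest of the 32 values for 5 of the 13 genes (PSMD2, PSMD7, PSMD5, UBE2K and FBXO22) and was among the 6 highest for 11. Its PSMD5 value lay 4.41 above the mean of the Cy5 arrays. Leaving out SS tumor 1 left 8 members called, LS tumor 23 left 6 and LS tumor 28 left 8. The count over all genes fell as well, from 204 higher to 155, 125 and 137. UBE2V1 alone was called with each of the 32 tumors left out in turn, at adjusted p of 0.004 to 0.05055.

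**Figure D3:**
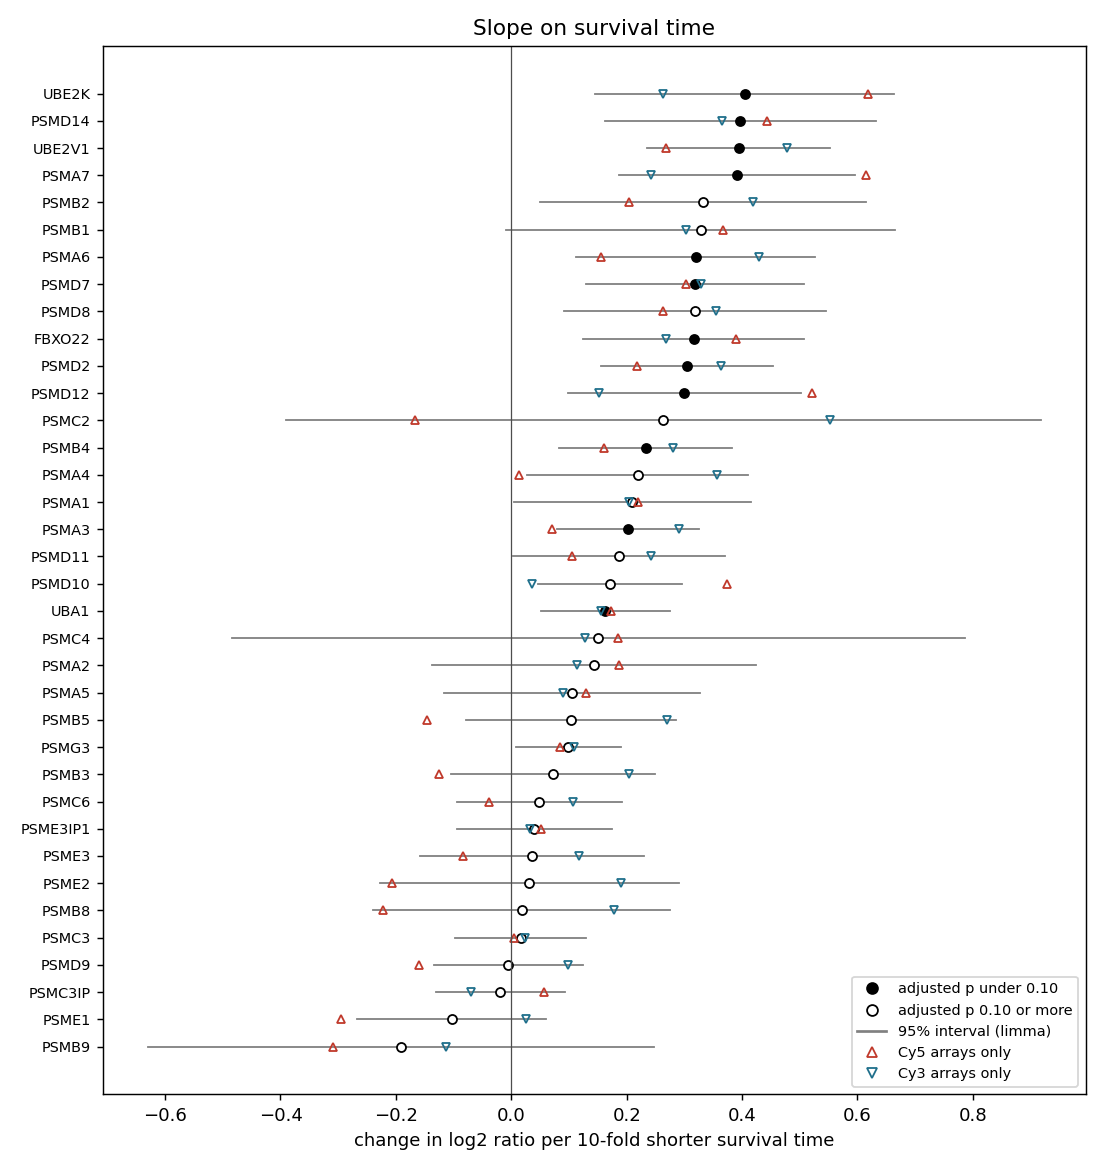
The x axis gives the change in log2 ratio per 10-fold shorter survival for the proteasome genes and for the other members that passed the test, and each row is 1 gene. Filled points are genes at an adjusted p under 0.10, grey lines are 95% limma intervals and triangles are the slopes on the Cy5 (up) and Cy3 (down) arrays alone. PSMD5 (1.49) is left out for scale. Called genes, chosen for a slope above 0 on these same arrays, have both triangles right of 0, and the immunoproteasome and activator genes lie between -0.19 and 0.04.

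Correlations across the tumors are given as a description. With each gene centered within its orientation, the median Pearson correlation of 2 genes over the 32 tumors was 0.08 among all members and 0.00 among all genes. Among the 20S alpha genes it was 0.42, among the 20S beta genes 0.55 and between them 0.49. It was 0.29 among the 19S non-ATPases, 0.25 among the 19S ATPases, 0.07 between the 19S ATPases and non-ATPases, 0.14 and 0.15 between the 19S ATPases and the 20S alpha and beta genes, 0.03 among the E2 enzymes, 0.03 among the F-box proteins and 0.04 among the USP enzymes. All these values share the arrays, the pool and the dye, and with the dye strength of each array regressed out the 20S medians were 0.46, 0.59 and 0.51. The pairs that ran closest together included PSMA6 with PSMB2 (r = 0.83) and PSMB2 with PSMD8 (r = 0.81), which kept 0.83 and 0.81 without the dye strength. PSMD12 with UBE2E2 (r = 0.83) and with FBXO31 (r = 0.85), all genes of large dye effect, came to 0.54 and 0.68 in this way, and PSMD12 with FBXW7 (r = 0.84) to 0.82. FBXO11 had correlations between -0.68 (PSMB2) and -0.02 (PSMA1) with the 12 standard 20S genes, and was singled out after its values were seen.

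**Figure D4:**
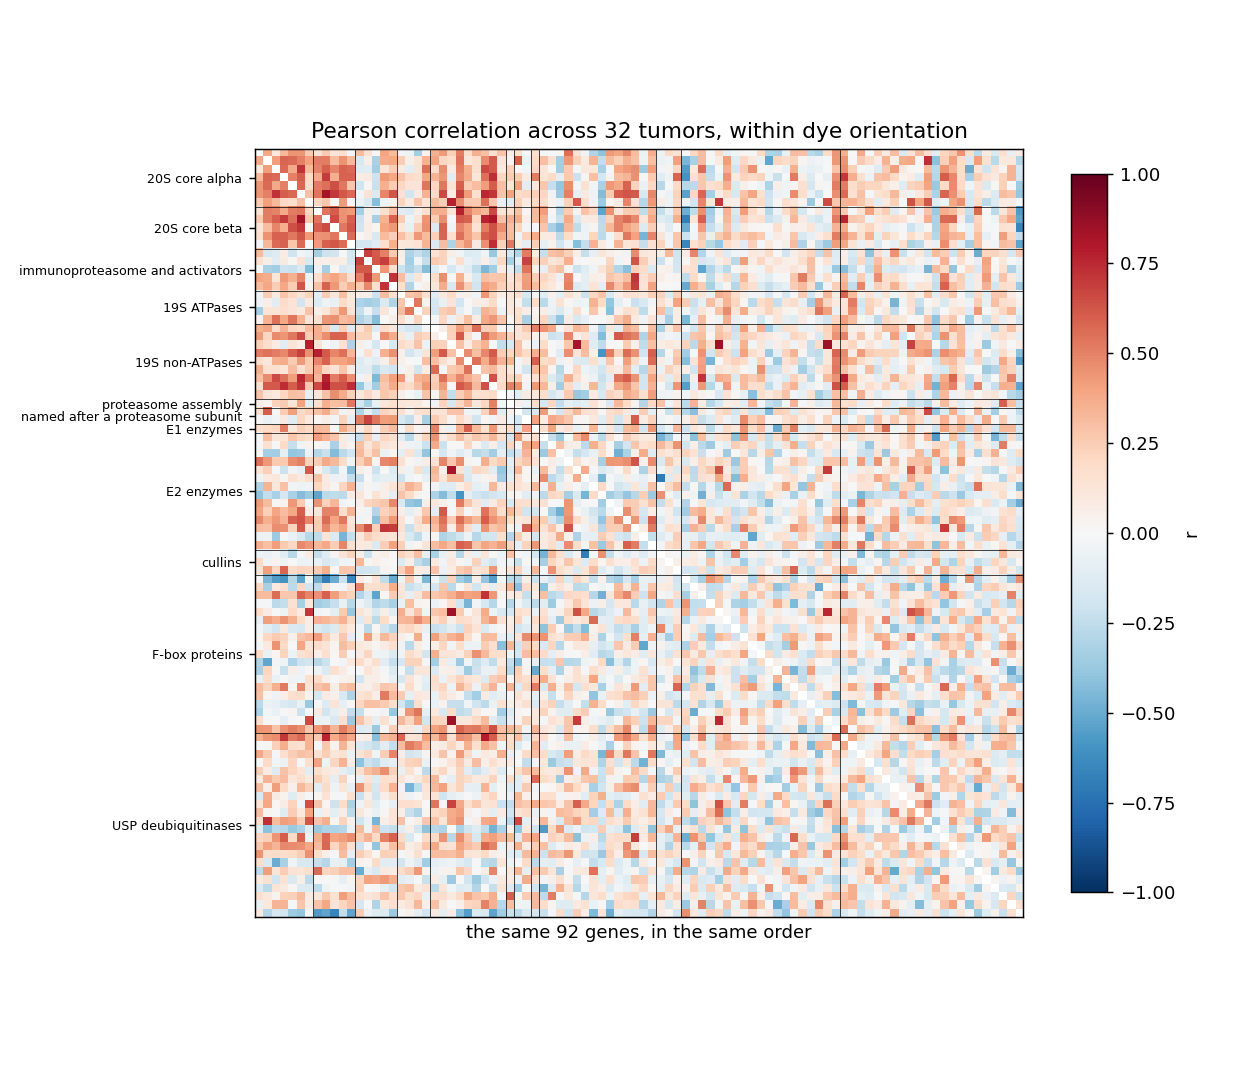
Both axes hold the same 92 genes ordered by role, and color gives Pearson's r over 32 tumors after centering within the dye orientation. The 20S blocks (medians 0.42 and 0.55) and the immunoproteasome block (median 0.56) stand out from the E2, F-box and USP blocks (medians 0.03 to 0.04).

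By the median correlation, the immunoproteasome and activator genes ran closer to each other (0.56) than to the 20S alpha genes (0.06) or the standard beta genes (0.06). Single pairs ran from 0.16 to 0.72 among themselves, from -0.42 to 0.63 with the alpha and from -0.34 to 0.59 with the beta genes. On the Cy5 arrays the medians were 0.63 among themselves, 0.06 with the alpha and 0.04 with the beta genes. The contrast was smaller on the Cy3 arrays, with medians of 0.29, 0.10 and 0.20. SS tumor 4, on a Cy5 array, was the highest in PSMB8, PSMB9, PSME2 and PSME3, and these medians were not computed without it. Of 9 pairs tested, PSMB8 and PSMB9 correlated at r = 0.68 (rho = 0.57, permutation p = 0.00012 and 0.00068, adjusted over the 9 pairs 0.000216 and 0.00122, n = 32). With TAP1, the peptide transporter, PSMB8 correlated at r = 0.79 (rho = 0.65) and PSMB9 at r = 0.84 (rho = 0.82). With B2M, the light chain of MHC class I, they correlated at r = 0.79 (rho = 0.76) and r = 0.67 (rho = 0.71). The permutation p of r was 2e-05 for PSMB8 with TAP1 and with B2M and for PSMB9 with TAP1, the smallest that the resampling can give, and 6e-05 for PSMB9 with B2M, with adjusted values of 6e-05 and 0.000135. Those of rho were 6e-05 for PSMB8 with TAP1 and 2e-05 for the other 3. Without the 2 tumors farthest from the median of the first gene the 4 correlations with TAP1 and B2M were 0.64 to 0.76 and that of PSMB8 with PSMB9 was 0.51. On the Cy3 arrays alone, PSMB8 with PSMB9 came to 0.28.

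PSME1 and PSME2 correlated at r = 0.44 (permutation p = 0.0112, adjusted 0.0168) and rho = 0.33 (permutation p = 0.067, adjusted 0.10). The adjusted p of their rho was thus not under 0.10. The standard subunit PSMB5 and its immunoproteasome counterpart PSMB8 gave r = -0.18 and rho = -0.21 (permutation p = 0.327 and 0.240), PSMA1 and PSMB1 r = 0.15 and rho = 0.12 (permutation p = 0.414 and 0.520, with r = 0.51 on the Cy5 and -0.26 on the Cy3 arrays), and FBXO32 and the muscle actin ACTA1 r = -0.13 and rho = -0.07 (permutation p = 0.458 and 0.715). None of these 3 passed.

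**Figure D5:**
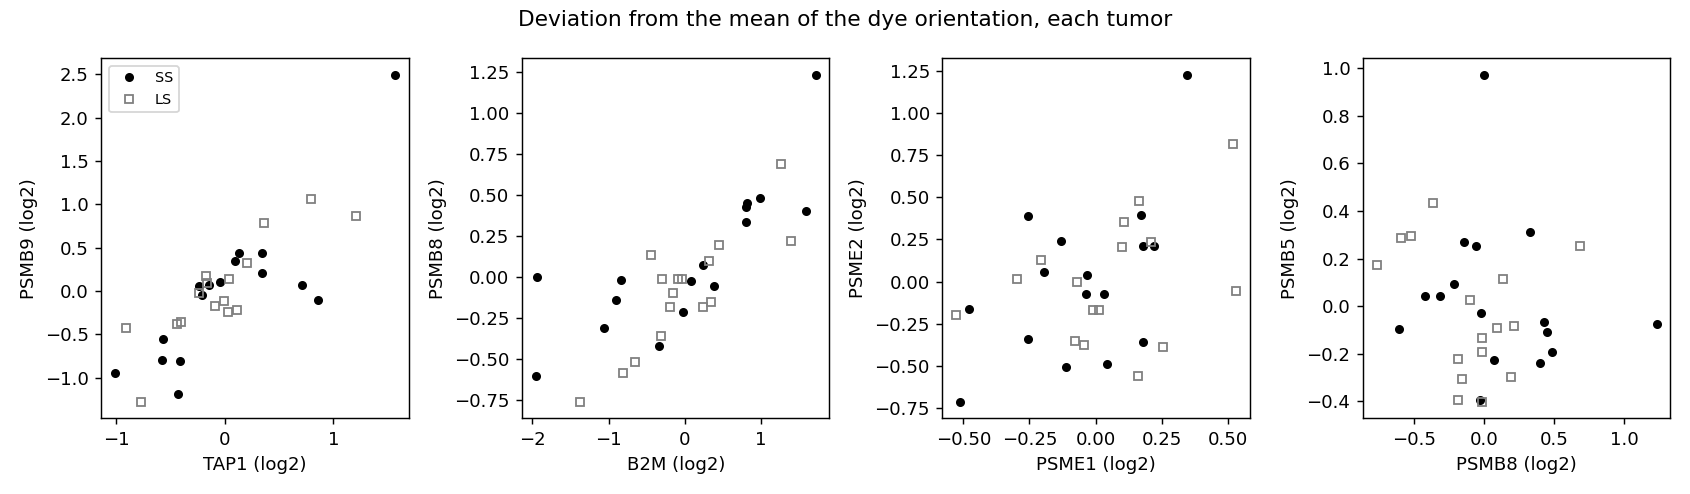
Each point is 1 tumor, a filled circle for SS and an open square for LS, and both axes give log2 deviations from the mean of the dye orientation. PSMB9 rises with TAP1 (r = 0.84) and PSMB8 with B2M (r = 0.79), PSME2 less closely with PSME1 (r = 0.44), and PSMB5 shows no such relation with PSMB8 (r = -0.18).

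SS tumor 4, the highest in PSMB8 and PSMB9, was also the highest SS tumor in the mean of the 10 measured leukocyte markers, at 1.36, where SS tumors ran from -0.55 to 1.36 and LS tumors from -0.59 to 0.53. The 6 measured interferon and antigen presentation genes, which include TAP1 and B2M, were at 0.98 in it, with -1.09 to 0.98 in SS and -0.90 to 1.10 in LS tumors. The part of leukocytes in the variation of PSMB8 and PSMB9 was not tested. Of 15 skeletal muscle markers 1 was above 0 between SS and LS, and their mean ran from -0.58 to 1.05 in SS and from -0.60 to 1.48 in LS tumors. The 2 measured proliferation genes, CCNB2 and PCNA, differed by 0.37 (SE 0.25; -0.02 on Cy5 and 0.77 on Cy3 arrays) and 0.30 (SE 0.18; 0.09 on Cy5 and 0.50 on Cy3 arrays), with a mean from -1.12 to 1.26 in SS and from -1.19 to 1.17 in LS tumors. The part of both in the proteasome values was not tested. The difference was above 0 for 8 of the 10 leukocyte and 6 of the 6 interferon genes, 3 of 6 osteoblast, 1 of 5 endothelial and 0 of 2 cartilage markers, and no erythroid or adipocyte marker was measured. None of the markers passed the test over all arrays, and with survival time the endothelial marker CD34 was lower with shorter survival (slope -0.23, adjusted p = 0.07285).

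The spread of the members over the tumors had a median SD of 0.263 within the orientations, against 0.274 for all genes. PSMD5 (1.77), CUL1 (1.74), FBXO33 (1.22), PSMC2 (1.06) and PSMC4 (1.02) exceeded 1, as did 2.80% of all genes. FBXO39 varied least, with 0.09. For PSMC2 the 2 probes disagreed, with SDs of 0.26 and 2.08 and a correlation of 0.09, and so did those of PSMC4, with SDs of 0.32 and 2.00 and a correlation of 0.06, so the spread of both genes is mostly that of 1 probe. Over the 34 members with several probes the median correlation between probes of a gene was 0.37, with 14 genes above 0.5 and 5 below 0, and for 14 genes the probes lay on both sides of 0 between SS and LS. USP7 (differences of -0.11 to 0.25 over 6 probes) and PSMC6 (-0.17 and 0.17) were among these, while the 4 probes of PSMB8 (0.05 to 0.38) and the 3 of PSMA4 (0.10 to 0.42) were all above 0.

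Of 67 further genes of ubiquitin and SUMO conjugation measured in 7 lists, none passed the test between SS and LS over all arrays. With the orientation block the ligase ARIH2, an E3 of the RBR type, was lower in SS tumors (-0.30, SE 0.08 over all arrays, adjusted p = 0.2351, and 0.03352 with the block), the 1 call in these lists, against 0.152% of all genes lower and 0.419% higher. The difference was -0.32 on the Cy5 and -0.29 on the Cy3 arrays. It was also lower with shorter survival (slope -0.22, adjusted p = 0.05132), and the HECT family gene HERC1 was higher (0.13, adjusted p = 0.08194), against 2.02% of all genes lower and 3.89% higher. The deubiquitinase UCHL3 differed by 0.31 (SE 0.15; -0.04 on Cy5 and 0.66 on Cy3 arrays) and OTUB2 by -0.24 (SE 0.11), the cullin subunit RBX1 by 0.11 (SE 0.08), the signalosome protease COPS5 by 0.21 (SE 0.12) and SEM1, a small subunit of the 19S particle, by 0.24 (SE 0.19). The difference was above 0 for 6 of 12 HECT and RBR ligases, 7 of 13 RING ligases, 8 of 15 partners of the cullins, 5 of 7 subunits of the anaphase promoting complex, 5 of 6 other deubiquitinases, 8 of 8 genes of substrate delivery and proteasome regulation and 5 of 6 SUMO genes. The medians of these lists lay between 0.00 and 0.11.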

How the data were processed

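The deposited values are log2 ratios of tumor over pool. To make them, the authors flagged defective spots, applied a print-tip Lowess normalization, took logarithms and turned the ratios of arrays with swapped dyes. The base is not named in the sources used here and was read as 2. If it was another, every difference scales by 1 factor and the tests do not change. Across probes the means of Cy5 and Cy3 arrays correlated at -0.658, and no 2 arrays with the same dye on the tumor correlated below 0.0237 (Cy5) or 0.00256 (Cy3), so the direction given by the methods was kept.

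Probes of a gene were averaged. Symbols came from the platform annotation (7694 probes with 1 symbol, 0 with several, 14482 with none), and 84 members were matched to current records by gene identifier. Missing values (5 in all) were left out. Groups came from the sample labels, and survival time, sex and chemotherapy, used only as model terms, from the study's clinical data. Survival times were used as complete, although some LS dogs died of other causes and were censored in the study, so their times enter the slopes here as events. Comparisons used limma 3.58.1 in R 4.3.3 (two-sided, no covariate in the main model) with Benjamini-Hochberg adjustment over 5246 genes and a threshold of 0.10, the false discovery rate of the study. Named pairs were tested by permutation with 100000 resamples in SciPy 1.17.1 under Python 3.11.15. The number of arrays limits the precision. Members and gene lists were chosen with earlier results of these data known.

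Named genes are the 12 higher and 12 lower members with the smallest p, members called with the block, up to 4 per role, a set of catalytic, activator, E1 and cullin genes, the 6 with the most spread, the 6 whose probes differed most, those of the tested pairs, and up to 2 per further list. Genes called within 1 orientation, by survival time or for the dye were added after their values were seen. Data were simulated for 5246 genes with the spread and the mean dye effect of each gene. All simulated arrays of an orientation had the same dye strength, and the genes varied independently. The unequal dye strengths of the SS and LS arrays were therefore not simulated, nor were changes below 0.5, while the median difference of the members was 0.08. In these data limma recovered 75 of 100 genes changed by 0.5 and 98 of 100 changed by 1 between SS and LS, with 6 false calls. With the block it recovered 83 and 98 with 23 false calls. For the slope on survival time 86 and 98 of 100 were recovered with 14 false calls.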

Additional observations from a re-analysis of the deposited data

Results flagged for a closer look

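For 4 members the SS minus LS difference itself differed between the Cy5 and the Cy3 arrays by an interaction term in limma, adjusted over all genes, where 3.09% of all genes did. UBE2E2 differed by 1.09 on Cy5 and -0.29 on Cy3 arrays (interaction adjusted p = 0.01075). USP30, a mitochondrial deubiquitinase, differed by 0.49 and -0.07 (interaction adjusted p = 0.06617), PSMB5 by -0.24 and 0.38 (0.07075) and FBXO31 by 0.60 and -0.05 (0.08104). The 2 USP30 probes disagreed, with 0.74 on Cy5 and -0.17 on Cy3 arrays for one and 0.23 and 0.02 for the other. Each orientation holds other tumors, 8 SS and 8 LS, so a different dye and different tumors cannot be told apart. The Cy5 minus Cy3 difference of the ratios was -2.45 for UBE2E2, -0.66 for USP30, -1.32 for FBXO31 and 0.26 for PSMB5.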

How the results depend on the processing

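The counts of members higher or lower in SS tumors, 0 and 0, stayed 0 with the orientation block, equal scaling or quantile normalization of arrays, array quality weights, the median of the probes, genes with 1 probe, each probe on its own, sex and chemotherapy as terms, and the dye strength as a term over all arrays. Without a covariate they also stayed 0 with each of the 32 tumors left out, and with the orientation block 1 member was called higher without SS tumor 2, SS tumor 7 or LS tumor 18. The number higher was 6 on the Cy5 arrays, 3 on the Cy3 arrays, 1 on the Cy3 arrays with dye strength as a term, 1 by SAM and 1 with log10 survival time and no dye term. The median difference of 0.08 ran from 0.06 to 0.09 with single tumors left out. With dye strength as a term on the Cy5 arrays it was 0.01, against 0.03 over all genes, and 51.1% of the members were above 0. Whether the numbers 1 to 16 within the survival groups pair the dogs could not be told from the correlation of arrays with the same number. It ran from r = -0.38 to 0.44, over 0.1 for 8 of 16 numbers. Some numbers join arrays with the same dye on the tumor and others arrays with opposite dyes, and the dye alone moves this correlation. The replicate block made from these numbers called 0 members higher and 0 lower. Of 64 named members the sign changed for 14 on the Cy5 and 9 on the Cy3 arrays, for 28 and 8 on these arrays with dye strength as a term, for 4 each with equal scaling, quantile normalization and array weights, for 2 with the median of the probes, and for 0 with the orientation block. The 13 members called by survival time became 1 without a dye term, 0 in SS tumors alone, 0 in LS tumors alone and 0 on the Cy5 arrays, and 1 to 17 with single tumors left out. Over all genes 38 to 273 were called higher with single tumors left out, against 204 with all tumors. On the Cy3 arrays 1 member, FBXO3, was lower with shorter survival. Fewer tumors enter the split models, and the cause of the other changes was not tested.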
